A study of Drosophila melanogaster with 3 samples.

Results

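Glycolysis enzyme genes were followed through development of the larval lymph gland, the blood-forming organ of Drosophila melanogaster. The 10 genes, chosen by symbol as the core enzymes of the pathway, were Hex-A, Pgi, Pfk, Ald, Tpi, Gapdh1, Gapdh2, Pgk, Eno and PyK, and each of them had a row among the 17490 genes of the count tables. Lymph glands of Oregon-R larvae at steady state were collected at 72, 96 and 120 h after egg laying (AEL), and total RNA of the intact glands was sequenced in bulk. Oregon-R is a wild-type strain, and the labels give no treatment, transgene or infection for any of the 3 groups. By the study's methods many glands were pooled and only their primary lobes kept, after removal of the posterior lobes, the ring gland and the dorsal vessel. A single library represented each time, so every difference given here compares 3 libraries, has no replicate check and carries no p-value, and the stage and the library cannot be told apart.

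Glycolysis turns glucose into pyruvate in the cytosol and yields ATP and NADH. The upper enzymes trap and rearrange the sugar and split it into triose phosphates, and the lower enzymes oxidise the trioses and harvest ATP. The NADH is reoxidised by lactate dehydrogenase, by the glycerol phosphate shuttle or through the mitochondria, and in Drosophila larvae the enzymes are expressed at high levels in growing tissue and in muscle. In hemocytes, glycolysis is known mainly for its role in immune challenge, when activated cells take up more sugar.

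The libraries are called the 72 h, 96 h and 120 h libraries, and values listed in threes follow that order. Levels are given as counts per 1000000 counts of the library (CPM) after scaling of the libraries by the trimmed mean of M-values (TMM). A log2 ratio is taken on CPM plus a pseudocount of 1 CPM, a fold is taken on the scaled counts, and 2-fold is a log2 ratio of at least 1 in size. The 95% interval beside a fold covers counting error only. Among genes with 1 to 20 counts, 69.6% to 72.0% had an even count, so counts may not be independent reads and these intervals may be too narrow. The intervals of the plots and of the order of levels were therefore taken on halved counts. The library totals were 49511614, 37922500 and 34278733 counts at 72, 96 and 120 h AEL, and mitochondrial genes and rRNA took 3.92%, 6.70% and 5.60% of them.

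The 10 enzyme genes were abundant in all 3 libraries and were lower in the 96 h than in the 72 h library without exception, with little further change to 120 h AEL for most of them. Together they held 228754, 101700 and 93101 counts at 72, 96 and 120 h AEL. This was 0.462% of all counts in the 72 h library (Wilson 95% interval 0.460 to 0.464), 0.268% in the 96 h library (0.267 to 0.270) and 0.272% in the last (0.270 to 0.273). The summed level was 4417, 2712 and 2809 CPM, which is 1.63-fold lower in the 96 h than in the 72 h library. In these bulk samples, fewer cells of a type and less RNA per cell cannot be told apart.

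**Figure D1:**
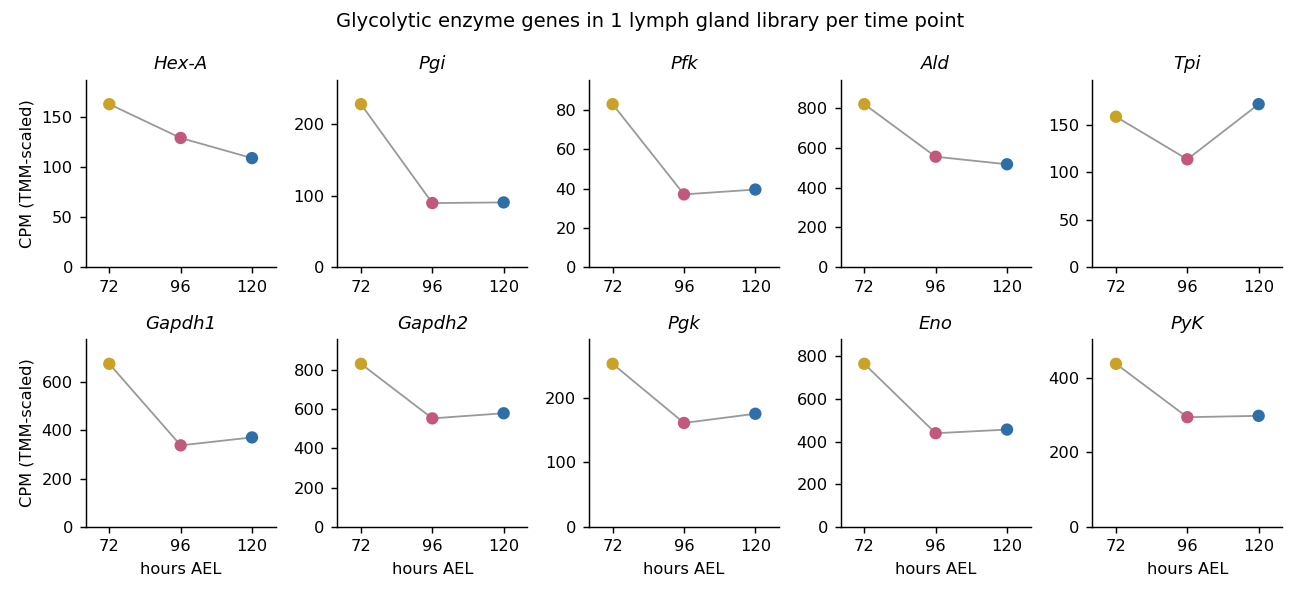
Level of each enzyme gene (vertical axis, TMM-scaled CPM from 0, a separate scale per panel) against time (hours AEL), 1 point per library with a line to guide the eye. Each gene is lower in the 96 h than in the 72 h library, 8 of 10 then lie within 1.1-fold of their 96 h AEL level, and Tpi alone returns to about its 72 h AEL level (log2 ratio 0.11, or 0.00 with total-count scaling).

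The pathway opens with Hex-A, a hexokinase that traps glucose in the cell as its phosphate. Hex-A (FBgn0001186, X chromosome, 9585675 to 9589813, plus strand, 1 exonic block of 4139 bases; here and below positions are those of the Ensembl BDGP6.54 annotation) had 163, 129 and 109 CPM at 72, 96 and 120 h AEL, from 8446, 4849 and 3616 counts. It was 1.26-fold lower in the 96 h than in the 72 h library (1.22 to 1.31) and 1.18-fold lower again in the 120 h than in the 96 h library (1.13 to 1.24). Hex-A thus had the smallest difference of the 10 genes in the earlier interval and the lowest log2 ratio of them in the later one, at -0.24.

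Pgi and Pfk, the next enzymes, differed most. Pgi, the glucose phosphate isomerase (FBgn0003074, 2R, 8910900 to 8914069, minus strand), had 228, 89.7 and 90.6 CPM, from 11817, 3365 and 3004 counts. It was 2.54-fold lower in the 96 h than in the 72 h library (2.45 to 2.64), and its 96 and 120 h AEL libraries were level (1.01-fold, 0.961 to 1.06). Pfk, the phosphofructokinase that commits the sugar to glycolysis and is the pathway's best known control point (FBgn0003071, 2R, 10109740 to 10117457, plus strand), had 83.0, 37.0 and 39.5 CPM, from 4296, 1389 and 1309 counts. Pfk was 2.24-fold lower in the 96 h than in the 72 h library (2.11 to 2.38) and 1.07-fold higher in the 120 h than in the 96 h library, with an interval that spans equality (0.988 to 1.15). Both genes were higher in the 72 h AEL library than in either later one. Within a library, where scaling plays no part, Pgi counts went from 1.40 times those of Hex-A to 0.694 and then 0.831 times.

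Ald and Tpi act on the split of the sugar. Ald (Ald1 in the annotation; FBgn0000064, 3R, 26254069 to 26261591, minus strand), the aldolase that cleaves fructose bisphosphate into a pair of trioses, had 819, 555 and 517 CPM. It was 1.48-fold lower in the 96 h than in the 72 h library (1.44 to 1.51 on halved counts) and 1.07-fold lower again in the 120 h library (1.04 to 1.10, likewise). The annotation places a non-coding gene, asRNA:CR44321, on the opposite strand over 338 exonic bases of Ald. That gene had only 9, 20 and 18 counts against 42428, 20820 and 17140 for Ald.

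Tpi was the exception to the shared course. Tpi, the triose phosphate isomerase (FBgn0086355, 3R, 30132981 to 30134599, minus strand), had 159, 114 and 172 CPM, from 8226, 4270 and 5703 counts. It was 1.40-fold lower in the 96 h than in the 72 h library (1.34 to 1.45) and then 1.51-fold higher in the 120 h than in the 96 h library (1.45 to 1.57), so that the 96 h AEL library was its lowest and the other two were within 1.08-fold of each other. Its log2 ratio between 120 and 72 h AEL was 0.11, which became 0.00 with scaling by total counts, so no direction is given for that pair. Within a library, Tpi counts were 0.105, 0.128 and 0.181 of the summed Gapdh1 and Gapdh2 counts.

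Gapdh1 and Gapdh2 encode the glyceraldehyde phosphate dehydrogenases, which oxidise the triose and make the NADH of the pathway. Gapdh1 (FBgn0001091, 2R, 7791901 to 7793380, minus strand) had 677, 338 and 371 CPM, from 35042, 12680 and 12297 counts. It was lower in the 96 h than in the 72 h library by a fold with an interval of 1.96 to 2.04, which lay just short of the 2-fold limit on the log2 scale and passed it with total-count scaling, with DESeq2 size factors or with a pseudocount of 0.1 CPM. It was then 1.10-fold higher in the 120 h than in the 96 h library (1.07 to 1.13). Gapdh2 (FBgn0001092, X chromosome, 15868145 to 15869661, plus strand) had 832, 554 and 580 CPM, from 43107, 20769 and 19216 counts, and was between 1.48- and 1.53-fold lower in the 96 h than in the 72 h library (95% interval).

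The balance of these paralogs differed between libraries. Of the counts of the pair, Gapdh1 held 44.8% in the 72 h library (Wilson 95% interval 44.5 to 45.2), 37.9% in the 96 h library (37.4 to 38.4) and 39.0% in the 120 h library (38.5 to 39.6). The 72 h AEL library therefore stood above the other two by more than counting error, whereas the intervals of the later libraries overlapped once counts were halved (37.2 to 38.6 and 38.3 to 39.8). Reads that fit both copies may have been dropped or given to either, so the split between them is uncertain, while the sum of the pair was 1.69-fold lower in the 96 h than in the 72 h library (1.67 to 1.71).

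Pgk, Eno and PyK complete the pathway. Pgk, the phosphoglycerate kinase that makes its earlier ATP (FBgn0250906, 2L, 2746880 to 2753068, minus strand), had 253, 161 and 176 CPM and was 1.57-fold lower in the 96 h than in the 72 h library (1.52 to 1.62). Eno, the enolase (FBgn0000579, 2L, 1724768 to 1729636, minus strand), had 765, 439 and 456 CPM and was 1.74-fold lower (1.71 to 1.77). PyK, the pyruvate kinase that makes pyruvate and the last ATP (FBgn0267385, 3R, 22367536 to 22372746, plus strand), had 438, 294 and 298 CPM and was 1.49-fold lower (1.45 to 1.52). All 3 genes were high at 72 h AEL and nearly level between the later libraries, at 1.09-fold for Pgk (1.05 to 1.13), 1.04-fold for Eno (1.02 to 1.06) and 1.01-fold for PyK (0.985 to 1.04). Eno shares 362 exonic bases with Rrp40 and Pgk shares 65 with Cwc25, both on the opposite strand. Rrp40 had 1177, 768 and 711 counts and Cwc25 had 1155, 1009 and 806, against 39609, 16467 and 15119 for Eno and 13124, 6056 and 5824 for Pgk. Since the use of strand in the counting was not given in the sources used here, reads of such overlaps cannot be told apart.

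All 10 genes had at least 1 CPM in a library, as did 9056 of the 17490 genes, which form the background below. Between 72 and 96 h AEL, 10 of 10 enzyme genes had a log2 ratio below 0, against 51.7% of the 9056 genes, and their median was -0.62 against -0.02. Pgi and Pfk were the 2 of 10 that were at least 2-fold lower, against 19.5% of all tested genes, many of them less abundant than the enzyme genes. None was 2-fold higher, against 4.76%. Among the 6538 genes with at least 10 CPM in a library, which is nearer the abundance of the enzymes, 45.0% were below 0 and 10.1% were at least 2-fold lower. The enzyme genes thus shared a direction, with sizes from -0.33 for Hex-A to -1.34 for Pgi on the log2 scale. Their 2 of 10 past the threshold lay near the share of all tested genes and above that of the abundant ones, and 10 genes are few for such a share.

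Between 96 and 120 h AEL their median log2 ratio was 0.06, with 2 of 10 below 0 (Hex-A and Ald) against 47.8% of all tested genes. None was 2-fold lower or higher, where the background was 1.12% and 1.47%. Of the 10 genes, 9 were within 1.2-fold, and Tpi was the one outside. Between 72 and 120 h AEL the median was -0.62 against -0.04 for all tested genes, 9 of 10 were below 0 against 52.6%, 2 of 10 (Pgi and Pfk again) were at least 2-fold lower against 20.7%, and none was 2-fold higher against 7.39%. The comparisons share libraries and are not independent of each other.

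**Figure D2:**
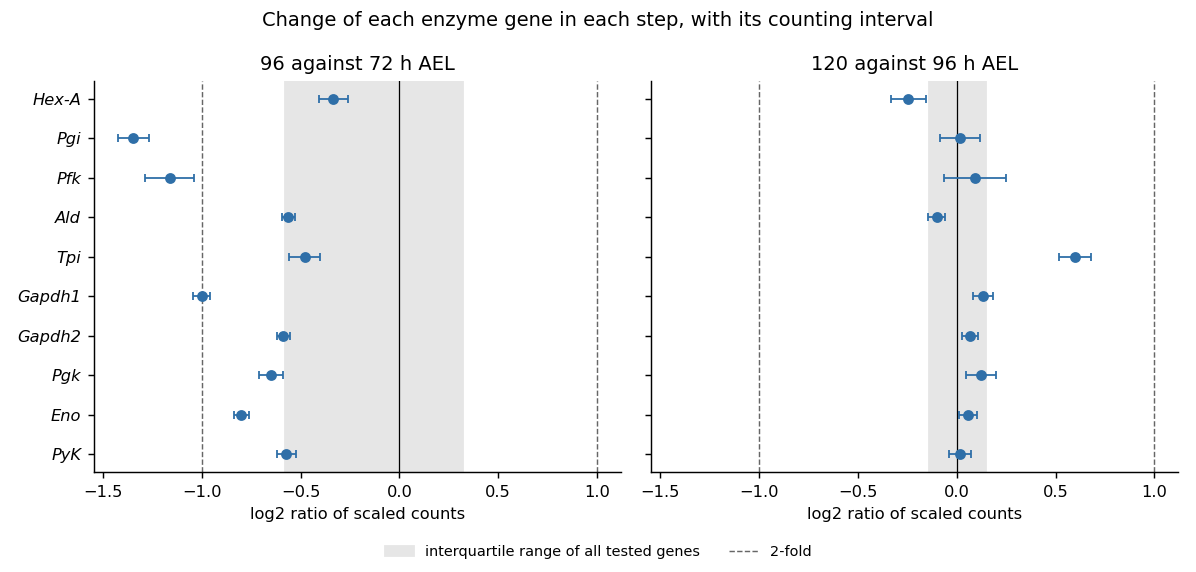
Log2 ratio of scaled counts of each enzyme gene (horizontal axis) for 96 against 72 h AEL (left) and 120 against 96 h AEL (right), with 95% counting intervals on halved counts, the interquartile range of the 9056 tested genes in grey and 2-fold as dashed lines. All 10 points lie left of 0 in the left panel, with Pgi and Pfk clear of the 2-fold line and Gapdh1 on it (interval 1.94 to 2.06), and in the right panel Tpi lies highest at 1.51-fold and Hex-A lowest.

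Levels of different genes can be compared only per length, here as counts per exonic base scaled to a sum of 1000000 per library (TPM). At 72 h AEL the order was Gapdh2 (1014 TPM), Gapdh1 (804), Ald (378), Eno (362), PyK (343), Pgk (211), Tpi (179), Pgi (163), Hex-A (69.3) and Pfk (33.3). Each neighbour in this order was apart from the next by more than the counting interval on halved counts, the closest being Ald and Eno at a ratio of 1.05 (1.03 to 1.07). By this measure both Gapdh genes and the aldolase lay at the top and hexokinase and phosphofructokinase at the bottom. The length used joins the exons of all annotated transcripts of a gene, 3809 bases for Ald with 10 transcripts and 1480 for Gapdh1 with 2. A gene read mostly from shorter transcripts would be placed too low, and the counting interval does not cover this.

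The ends of this order were the same in the later libraries. Gapdh2 had 695 and 713 TPM at 96 and 120 h AEL and Gapdh1 had 414 and 445, while Hex-A had 56.5 and 46.8 and Pfk had 15.3 and 16.0. In the middle, PyK (238 and 236 TPM) stood above Eno (214 and 218) at both later times. Pgk (138 TPM) and Tpi (132 TPM) could not be told apart at 96 h AEL (ratio 1.05, 0.990 to 1.11), and Ald (241 TPM) and PyK could not at 120 h AEL (1.02, 0.987 to 1.06). Tpi moved above Pgk at 120 h AEL, with 196 against 148 TPM, and its part of the summed TPM of the 10 genes was 5.04%, 5.93% and 8.43% at 72, 96 and 120 h AEL. Pgi took 4.59%, 2.96% and 2.81% of that sum, its largest part in the 72 h library.

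**Figure D3:**
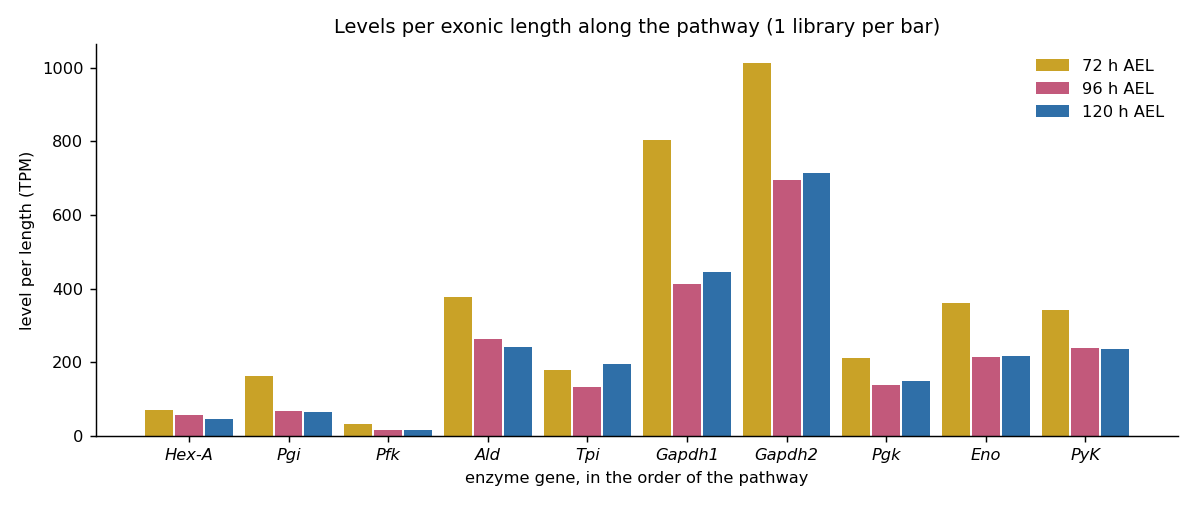
Level per exonic length (vertical axis, TPM from 0) of the enzyme genes in the order of the pathway, 1 bar per library at 72, 96 and 120 h AEL. Gapdh2 is the highest in every library, from 695 to 1014 TPM, and Pfk the lowest, from 15.3 to 33.3 TPM.

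The step between Pgk and Eno is carried by a phosphoglycerate mutase outside the 10 genes. Pglym78, one of its genes, had 7605, 2074 and 1759 counts and was 2.66-fold lower in the 96 h than in the 72 h library (2.53 to 2.79), with an interval that overlaps that of Pgi. Its paralog Pglym87 was at 0 counts in all 3 libraries, which allows up to 0.0579, 0.0800 and 0.0905 CPM at 72, 96 and 120 h AEL at a floor of 3 counts. Among other forms of the glycolytic enzymes, Hex-t1 and Hex-t2, hexokinases known from the testis, were also at 0 counts throughout. Hex-C, a further hexokinase, had 783 counts at 72 h AEL and 13 in each later library, which is 43.6-fold lower at 96 h AEL (25.4 to 82.3). Of the Hex-A and Hex-C counts, Hex-C held 8.48% in the 72 h library (Wilson 95% interval 7.93 to 9.07), 0.267% in the 96 h library (0.156 to 0.457) and 0.358% in the 120 h library (0.209 to 0.612). Hex-A thus carried most of these counts in the 72 h library and nearly all of them in the later libraries. Per length, Hex-C had 17.8 TPM against 69.3 TPM for Hex-A at 72 h AEL. Of the 15 genes in this list of other forms and steps, 6 had at least 1 CPM, 2 of these (Pglym78 and Hex-C) were at least 2-fold lower and none was higher in the 96 h than in the 72 h library, and the list's median log2 ratio was 0.08. That median was -0.64 with a filter of 10 CPM, and the mean over the 6 genes was -0.72. Of all 9056 tested genes, 51.7% were below 0, 19.5% at least 2-fold lower and 4.76% higher in the 96 h than in the 72 h library. The counts of this and the lists below are to be read beside these shares, and a list near them does not stand out.

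The branches that reoxidise NADH had a larger median difference than the pathway itself. ImpL3, which is Ldh in the annotation and encodes lactate dehydrogenase, had 2940, 12 and 56 counts, which is 177-fold lower in the 96 h than in the 72 h library (101 to 344) and 5.28-fold higher in the 120 h than in the 96 h library (2.80 to 10.8). Relative to PyK, ImpL3 counts were 0.130, 0.00109 and 0.00567. The lactate dehydrogenase transcript was therefore abundant in the 72 h library and scarce in both others.

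The glycerol phosphate shuttle moved in the same direction. Gpdh, the cytosolic glycerol phosphate dehydrogenase, was counted 15867, 4421 and 3666 times, which is 2.60-fold lower in the 96 h than in the 72 h library (2.51 to 2.69). Its mitochondrial partner Gpo-1 was counted 11409, 692 and 517 times, 11.9-fold lower over the same interval (11.1 to 12.9). All 3 tested genes of this list were at least 2-fold lower between 72 and 96 h AEL, with a median log2 ratio of -3.51, and only ImpL3 passed 2-fold, as higher, between 96 and 120 h AEL.

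Genes that take pyruvate into the mitochondria were mostly lower, with Pdk as the gene that was higher. Pdk, the kinase that inactivates pyruvate dehydrogenase, had 55.4, 155 and 215 CPM, which is 2.80-fold higher in the 96 h than in the 72 h library (2.68 to 2.93) and 3.88-fold higher in the 120 h than in the 72 h library (3.72 to 4.06). CG11876, named Pdhb in the annotation and a subunit of the dehydrogenase, had 275, 119 and 114 CPM and was 2.31-fold lower in the 96 h than in the 72 h library (2.23 to 2.39). Counts of Pdk relative to those of the subunit gene l(1)G0334 (Pdha in the annotation) were 0.146, 0.676 and 1.07. The median log2 ratio of the 8 genes of this list was -0.68 between 72 and 96 h AEL, with 7 of 8 below 0, 1 at least 2-fold lower and 1 higher.

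The pentose phosphate pathway, which leaves glycolysis at glucose phosphate and makes NADPH and ribose, was lower in all 7 of its genes in the 96 h than in the 72 h library, with a median log2 ratio of -0.71. Zw, its entry dehydrogenase, went from 1486 to 266 and 299 counts (4.05-fold lower at 96 h AEL, 3.55 to 4.63). Tal, the transaldolase, went from 16694 to 5433 and 4532 counts (2.23-fold lower, 2.16 to 2.29), and these 2 genes alone passed 2-fold.

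The median log2 ratio of the citric acid cycle genes was smaller, at -0.33 for 96 over 72 h AEL, with 14 of 15 genes below 0 and none past 2-fold. For 120 over 72 h AEL, kdn, the citrate synthase, was the single gene past 2-fold, at 688, 436 and 327 CPM (2.11-fold lower, 2.06 to 2.15). Within a library, the summed counts of the 10 glycolytic genes were 0.910, 0.713 and 0.790 of those of the citric acid cycle genes.

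Sugar supply was mixed. Tps1, the trehalose phosphate synthase that makes the circulating sugar of insects, had 3647, 20 and 20 counts and was 132-fold lower in the 96 h than in the 72 h library (85.4 to 216). Tret1-1, a trehalose transporter, went from 3517 to 162 and 198 counts, 15.7-fold lower at 96 h AEL (13.4 to 18.5). GlyP, the glycogen phosphorylase, named here after its values were seen, went from 10316 to 2089 and 2596 counts, 3.58-fold lower at 96 h AEL (3.41 to 3.75).

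CG9485, which has no other name in the annotation, had 1157, 1799 and 2333 counts and was 2.15-fold higher in the 96 h than in the 72 h library (1.99 to 2.31). It was the only one of the 11 tested genes of sugar uptake, trehalose and glycogen to be at least 2-fold higher, while 4 were lower and the median was -0.48. In gluconeogenesis 2 of 4 genes were tested. CG1516 (PCB in the annotation, the pyruvate carboxylase) had 12155, 1188 and 1024 counts and was 7.41-fold lower in the 96 h than in the 72 h library (6.98 to 7.87), whereas CG10924 (Pepck2 in the annotation) had 179, 458 and 784 counts and was 3.53-fold higher (2.97 to 4.22).

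Genes known as regulators of glycolytic genes, mostly transcription factors but with the corepressor gro and the prolyl hydroxylase Hph among them, had a median log2 ratio of 0.09 over 10 genes for 96 over 72 h AEL, with 7 above 0 and 1 gene past 2-fold in each direction. The gene dm, which is Myc in the annotation and a growth regulator, had 6278, 10387 and 9403 counts and was 2.28-fold higher in the 96 h than in the 72 h library (2.21 to 2.36). The gene sug, a sugar-responsive factor named here after its values were seen, went from 1399 to 457 and 547 counts, 2.22-fold lower at 96 h AEL (1.99 to 2.47). ERR, the estrogen-related receptor known to drive the glycolytic genes of Drosophila larvae, was also named after its values were seen. It had 4.17, 6.83 and 8.54 CPM, from 216, 256 and 283 counts, and was higher in each later library. On scaled counts the 120 h library was just over 2-fold above the 72 h library. No comparison passed 2-fold on the log2 scale, where the pseudocount makes ratios at such low levels smaller.

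**Figure D4:**
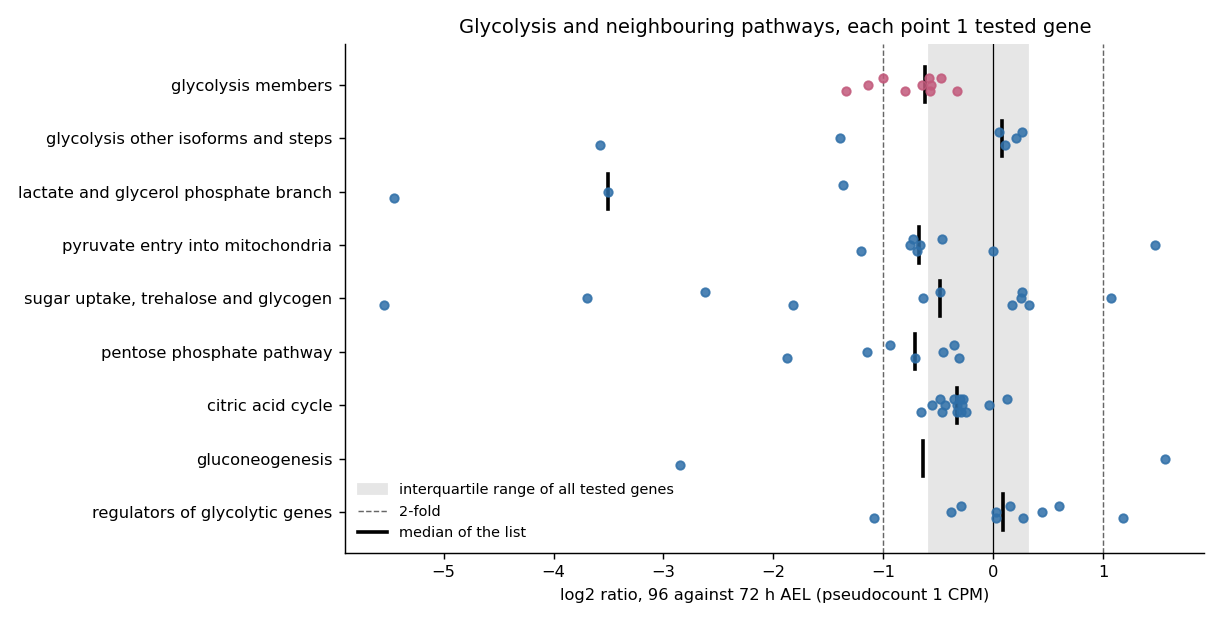
Log2 ratio for 96 over 72 h AEL (horizontal axis, pseudocount 1 CPM) of each tested gene of the 10 glycolytic enzyme genes and of 8 neighbouring pathway lists, 1 point per gene with a black bar at the list's median, the interquartile range of all tested genes in grey and 2-fold as dashed lines. The enzyme genes centre at -0.62, near the pentose phosphate pathway at -0.71, while the lactate and glycerol phosphate branch centres at -3.51 and the regulators at 0.09.

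The 72 h AEL library also differed in markers of other tissues. The labelled tissue was present in each library by its hemocyte markers, with prohemocyte markers (Tep4 and Ance) summing to 17813, 17787 and 19958 CPM and plasmatocyte markers (Hml, Pxn and NimC1) to 10007, 21498 and 19976 CPM. Tep4 had 12238, 10744 and 10238 CPM and Ance 5575, 7043 and 9720 CPM. Crystal cell markers (lz, PPO1 and PPO2) summed to 672, 13355 and 16566 CPM. Lamellocyte markers (atilla, PPO3 and ItgalphaPS4) summed to 7.57, 15.4 and 28.6 CPM, and markers of the posterior signaling center (Antp, kn and tau) to 125, 85.5 and 99.8 CPM. Between 72 and 96 h AEL atilla (6.60 to 3.73 CPM) and tau (31.0 to 32.5 CPM) moved against the sums of their lists. All 14 markers of dorsal vessel and muscle were at least 2-fold lower in the 96 h than in the 72 h library, and their sum went from 5337 to 526 and 368 CPM with none at 0. Act57B, the most abundant of them, had 1768, 215 and 137 CPM. All 8 neuron markers were also at least 2-fold lower, with a sum of 142, 16.3 and 16.1 CPM and brp and Syn at 0 at 96 h AEL.

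Ring gland markers summed to 657, 205 and 135 CPM, with 5 of 7 at least 2-fold lower and 1 higher in the 96 h than in the 72 h library and none at 0. Fat body markers summed to 1781, 342 and 520 CPM, a course set by Rfabg (apolpp in the annotation) at 1484, 37.1 and 39.7 CPM. The median log2 ratio of that list for 96 over 72 h AEL was 0.71, with 6 of 9 above 0, 2 at least 2-fold lower and 3 higher, and Fbp1 at 0 in the 96 h library. Midgut markers summed to 94.9, 1.20 and 1.27 CPM, of which Jon25Bi alone made 89.0 CPM in the 72 h library and was at 0 in the others, and only 3 of the 9 had at least 1 CPM in a library. The dorsal vessel and muscle, neuron and most ring gland markers, with Rfabg and Jon25Bi, moved with the enzyme genes between 72 and 96 h AEL, and their part in the result was not tested. From 96 to 120 h AEL the dorsal vessel and muscle sum went from 526 to 368 CPM. The summed level of the 10 enzyme genes went from 2712 to 2809 CPM, and any link between the sums was not tested.

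**Figure D5:**
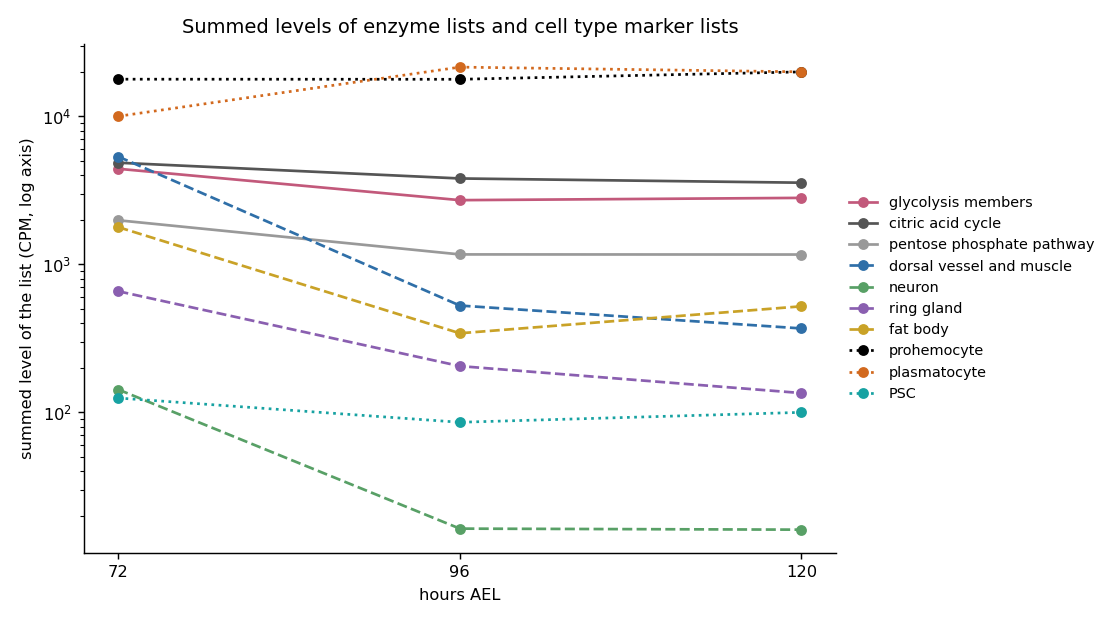
Summed level (vertical axis, TMM-scaled CPM, log axis) of the 10 glycolytic enzyme genes, 2 neighbouring pathways and 7 lists of cell type markers against time (hours AEL), 1 library per point. The enzyme sum goes from 4417 to 2712 CPM between 72 and 96 h AEL while the dorsal vessel and muscle sum goes from 5337 to 526 CPM.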

How the data were processed

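Each library came as a table of deposited raw counts, whole and not normalized by the authors. The submitters' processing notes name FastQC 0.11.8, STAR 2.5.3a, featureCounts 1.6.0 and the genome build BDGP6. Their settings and the use of strand were not given in the sources used here. TMM factors came from edgeR 4.0.16 in R 4.3.3, on genes with at least 1 CPM in a library, with DESeq2 1.42.0 size factors as an alternative. Folds, intervals (exact for a ratio of Poisson counts, Wilson for shares) and plots used Python 3.11.15, SciPy 1.17.1 and Matplotlib 3.10.9. The steps were tested on simulated independent Poisson counts with as many genes raised as lowered. These data differ from that setting in their even counts and in their excess of lower genes, so it does not show how the intervals and the scaling behave here. Exonic lengths and positions came from the Ensembl release 115 annotation (BDGP6.54), which covered 17339 of 17490 genes. Total counts were 34278733 to 49511614 per library. Samples were grouped by the time in the labels, and with 1 library per time no test was made. The members and lists were chosen with earlier results of these data known. Genes of the pathway lists outside the 10 were named if they were Pglym78, ImpL3 or Gpdh. Others needed at least 10 CPM in a library and a 2-fold difference at 120 against 72 h AEL, at most 3 per list by size. Pglym87, Hex-t1, Hex-t2 and l(1)G0334 were named outside this rule. GlyP, sug and ERR are marked as named after their values were seen. Scalings, pseudocounts, filters and thresholds were varied. Promoter sequences were not analysed here.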

Additional observations from a re-analysis of the deposited data

How the results depend on the processing

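No paired analysis was possible because each time had 1 library, and the counting intervals say nothing of the spread between glands. With scaling by total counts the median log2 ratio of all genes for 120 over 72 h AEL went from -0.04 to -0.15, and Pgi and PyK, nearly level between 96 and 120 h AEL, changed sign; all other signs of the log2 ratios of the 10 genes were kept in 50 alternatives per comparison, with a largest shift of 0.11. At a 4-fold threshold 0 of the 10 genes passed for 96 over 72 h AEL and 0 for 120 over 72 h AEL. Of all tested genes, 8.62% and 9.68% were then lower, and 1.20% and 2.11% higher. At 1.5-fold 6 and 5 of the 10 genes passed in these comparisons, all lower, where 24.9% and 27.0% of all tested genes were lower. At that threshold 1 gene (Tpi) was higher for 120 over 96 h AEL, against 4.07%. For 120 over 72 h AEL 1 gene (Pgi) was 2-fold lower with a pseudocount of 5 CPM, against 9.50% of all tested genes. There was also 1 where the whole interval on halved counts had to pass, a rule not applied to all genes. The share of the library at 72, 96 and 120 h AEL was 0.481%, 0.287% and 0.288% without mitochondrial genes and rRNA, 0.523%, 0.311% and 0.311% without the 10 most abundant genes, and 0.356%, 0.223% and 0.232% per length. The share of Gapdh1 per length was 44.2%, 37.3% and 38.4%. A different total or length unit accounts for these by construction.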
